A study of Enchytraeus albidus with 21 samples.

Results

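The Ealb_Pest probes are 198 of the 1035 worm probes on a custom single-colour array for *Enchytraeus albidus*, a potworm (an oligochaete annelid) used in soil toxicity tests. They were chosen by name alone: every non-control probe whose identifier starts with Ealb_Pest_. The rest of an identifier gives a plate (1 to 10), a well, the letters SP6 or T7 and a serial number. SP6 and T7 are phage promoters that flank the insert in common cloning vectors and serve as sites for sequencing primers. The files pair the probes with neither gene names nor sequences and do not spell out what Pest stands for, so probes are named below by plate, well and end. In this group 174 probes carry SP6 and 24 carry T7, and no well is represented by both ends.

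Each array measured total RNA of whole bodies from a pool of 10 adults that had a developed clitellum, a gland on the body wall that forms the cocoon in mature annelids. In experiment 2, worms stayed in untreated control soil for 2, 4 or 8 days (4 arrays each). In experiment 1, worms spent 2 days in soil spiked with acetone, a solvent used to carry poorly soluble chemicals into soil (3 arrays), or 2 days in the water control soil (3 arrays), or were taken straight from culture on day 0 (3 arrays). Vessels held 25 g of moist soil and stood at 20 °C, lit for 16 h and dark for 8 h, and 0.5 µg of RNA was labelled for each array. Replicates are separate groups of worms, per the labels' protocols. In experiment 2, arrays 2 and 4 at 2 days almost coincided and were counted as 1 sample, which leaves 20 samples. The median absolute deviation of their differences over the Ealb_Pest probes, scaled to match an SD, was 0.0883 log2 units. It was at least 0.277 for other pairs. This measure leaves out a constant offset between arrays, and the largest difference of a single Ealb_Pest probe was 0.579 log2 units.

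A level is the log2 signal of a probe minus the 75th percentile of its array, so a level of 0 is that of the probe at this percentile. Levels of different probes also reflect how well each probe binds and are given only to place the probes. Between 78 and 181 Ealb_Pest probes were well above background per array. Of the 198, 71 were so on all 21 arrays, 113 on some and 14 on none. The 3 arrays with the fewest were 4-day replicate 3 (105), 8-day replicate 3 (94) and culture replicate 3 (78). All other arrays had 156 or more.

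The library was dim and uneven. The median level of an Ealb_Pest probe was -5.44, and 39 of 198 probes had a mean level above 0. T7 probes had a median level of 0.54, 15 of 24 lay above 0, and 20 of 24 were well above background on every array. SP6 probes had a median level of -6.11, and 51 of 174 were well above background on every array. Outside the 42 probes described next, the other 132 SP6 probes had a median level of -4.81. The probe end goes with level here, and its part in the levels was not tested.

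These 42 probes gave almost the same values as each other on the 18 arrays where they were well above background. They were found after the data were seen, by grouping probes whose levels lay within 0.15 log2 units of each other (median over arrays, complete linkage) among the 817 worm probes that were well above background on at least 11 arrays and saturated on none. All 42 are Ealb_Pest probes, all carry SP6, and they come from all 10 plates, from 1 on plates 1 and 2 to 9 on plates 8 and 9. Their mean levels lay between -6.37 and -6.26. On a median array they differed among themselves by an SD of 0.052, against a standard error of 0.045 for 1 probe from the scatter of its spots. Either all 42 or none were well above background: all on 18 arrays, none on the same 3 arrays that had the fewest Ealb_Pest probes above background. The other 156 probes had 105, 94 and 78 above background on those 3 arrays and 114 to 139 on the others.

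The step, as these 42 probes are called below, moved between arrays as 1 signal. Its probes were grouped for coinciding levels, so this follows from the choice. Its array mean ranged from -7.16 to -5.49. In experiment 2 its mean level was -6.02 ± 0.60 at 2 days (SD, n = 3), -6.26 ± 0.69 at 4 days (n = 4) and -5.89 ± 0.42 at 8 days (n = 4). In experiment 1 it was -6.61 ± 0.38 with acetone, -6.67 ± 0.43 in the water control and -6.45 ± 0.35 in culture (SD, n = 3 each). Of the 15 pairs of groups 14 overlap. The exception is the 8-day group (-6.37 to -5.51) and the water control (-7.16 to -6.42), which come from different experiments and were not compared. None of the 42 probes passed the test in any of the 7 comparisons below. The 3 arrays on which they were not above background are included in these values.

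Smaller sets of the same kind followed. A set of 5 SP6 probes from 4 plates averaged -5.45 and ranged from -7.28 to -2.46 over arrays. A set of 4 SP6 probes from 4 plates averaged -5.44. A set of 3 T7 probes from 2 plates stood at 3.12 together with 1 contig probe. Of the 154 Ealb_Pest probes bright enough for this comparison, 69 (44.8%) lay in a set with at least 1 other probe, beside 16.5% of all 817, and the 154 gave 101 distinct signals. The same count gave 256 distinct signals for 263 Ealb_Met probes, 131 for 136 contig probes and 255 for 264 probes named by plate position only. At a threshold of 0.1 the Ealb_Pest probes gave 102 distinct signals and at 0.3 they gave 96. At 0.1 the largest set held 24 probes. The share of probes in sets depends on the threshold: at 0.3 it was 76.0% for Ealb_Pest, 62.0% for Ealb_Met, 66.2% for contig and 64.4% for plate-only probes, while the largest set held 43 Ealb_Pest probes and at most 5 of any other kind. This is a description of the arrays. Whether the probes share sequence was not tested.

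The step lowers the median of the library. Over all 198 probes the median level was -5.03, -5.64 and -5.07 at 2, 4 and 8 days of experiment 2, and -5.88, -5.61 and -5.74 with acetone, in the water control and in culture. Without the 42 probes it was -3.83, -4.36 and -3.95, and -4.53, -4.04 and -4.25 for the same groups. Over all 1035 worm probes it was -3.33, -3.63 and -3.38, and -3.68, -3.33 and -3.50. In all 6 groups the library stayed below the median of all probes without the step, but by less.

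The highest mean levels came from P10_E3_SP6 (5.19), P3_E11_T7 (5.17) and P3_H9_SP6 (4.94). These probes were saturated on 16, 17 and 13 of the 21 arrays, so their levels and their order are not measured. In all, 11 Ealb_Pest probes were saturated on at least 1 array. Among probes above background on every array the lowest were P9_A5_T7, P10_A9_SP6 and P3_G12_SP6, between -4.23 and -4.20. Among the same probes, the steadiest by pooled replicate SD were P8_D7_SP6 (0.183), P7_A4_SP6 (0.204) and P3_H3_T7 (0.246). For P8_D7_SP6 the 4-day, 8-day and acetone values ranged over 3.24 to 3.53, 2.81 to 3.54 and 2.76 to 2.89. The most variable of the probes above background on every array were P6_C9_SP6 (1.29), P9_C5_T7 (1.27) and P6_H1_SP6 (1.105). Probes outside that choice could spread more: P3_H7_T7, above background on 17 arrays, was at -9.11, -0.06 and 1.29 in culture. P6_C9_SP6 had a replicate SD of 2.03, 1.07 and 1.94 at 2, 4 and 8 days of experiment 2, but 0.17, 0.11 and 0.35 with acetone, in the water control and in culture. P9_C5_T7 had the same order of spread, 2.17, 0.89 and 1.85 against 0.23, 0.12 and 0.44. Over the library, the median replicate SD was 0.62, 0.72 and 0.56 at 2, 4 and 8 days and 0.35, 0.31 and 0.39 in the 3 groups of experiment 1. Without the 42 near-identical probes it was 0.73, 0.78 and 0.89, and 0.33, 0.23 and 0.41. Over all worm probes it was 0.62, 0.67 and 0.63, and 0.35, 0.21 and 0.33.

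The comparisons below use limma on all worm probes tested, with adjusted p-values over all of them and a threshold of 0.05. A probe that passes is called. Unless stated, counts under alternatives come without the share over all probes and do not set the Ealb_Pest probes apart. Whole-body RNA cannot tell fewer cells of a type from less RNA per cell.

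Acetone against the water control asks what the carrier solvent does beside water. A small set of probes was far higher with acetone and a second set was lower. Of 165 Ealb_Pest probes tested, 13 were called, 5 higher and 8 lower, which is 7.88% beside 6.23% of all 883 probes tested (2.15% higher and 4.08% lower). The share is close to the background. Of the 165, 42 are the near-identical probes, none of them called, and all 13 calls were among the other 123. The 42 were picked after the data were seen and are also among the 883. The 123 were therefore not set against a matching background. P6_F12_SP6 was at 2.68, 1.20 and 1.78 with acetone, against -0.85, -3.26 and -4.86 in the water control. It rose by 4.88 ± 0.82 log2 units (difference ± standard error, n = 3 each, adjusted p = 0.0186), 29.4-fold. P7_C2_SP6 was at 2.00, 0.70 and 1.17 with acetone, against -1.38, -3.74 and -5.42 in the water control. It rose by 4.81 ± 0.82 (adjusted p = 0.0186). In both probes the groups do not overlap, and water replicate 1 lies well above the other 2 water samples.

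P6_H1_SP6 and P9_F6_SP6 rose as well, by 4.79 ± 0.81 and 4.68 ± 0.69 (adjusted p = 0.0186 each). Over the 20 samples the mean of these 4 probes ranged from -5.39 to 1.87, while their SD among themselves was 0.53 at the median sample and 0.89 at most. The 4 were picked for being higher with acetone and at 8 days, so moving alike follows in part from the choice. P6_H1_SP6 and P7_C2_SP6 differed by at most 0.056 log2 units on any sample. Under the grouping above, that pair is 1 signal. P10_D7_SP6 was the other probe called higher (1.44 ± 0.35, adjusted p = 0.0403).

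The falls were smaller. P4_A5_SP6 was at -7.17, -7.96 and -8.17 with acetone, against -6.73, -5.51 and -6.05 in the water control, and fell by 1.67 ± 0.36 (adjusted p = 0.0345). It was above background on only 1 of the 3 acetone arrays. P6_D3_SP6 was at -5.59, -4.99 and -4.48 with acetone, against -3.46, -3.02 and -3.62 in the water control, and fell by 1.65 ± 0.35 (adjusted p = 0.0314). The groups do not overlap in either. For 3 of the 8 falling probes no acetone array was above background. Their folds are lower bounds in this scaling only, from at least 1.31-fold to at least 1.60-fold. In experiment 1, these 3 and P4_A5_SP6 were above background on every array of the water control alone. They thus entered the test only through the group where they are higher, so their calls are weak support for a fall. The median difference was -0.14 over the Ealb_Pest probes and -0.31 over all probes tested. The 42 near-identical probes had a mean difference of 0.06, and the other 123 had a median of -0.36, with 98 negative. The changes are thus relative to a lower array median with acetone. With quantile normalization or centring on the median, 6 probes were called, 6 higher and 0 lower, against 5 higher and 8 lower as scaled here. On the authors' values 0 were called, though 4 of all probes tested were. Leaving out acetone replicate 1 gave 8 calls, acetone replicate 2 gave 0, water replicates 2 and 3 gave 1 and 4, and culture replicates 2 and 3, which share the fit, gave 7 and 20. Acetone and water control arrays were scanned on different days. A random block for that day gave 41 calls, 6 higher and 35 lower. No scan day held arrays of both groups, so the block cannot separate day from treatment. Over 20 alternatives the difference of P6_F12_SP6 lay between 3.94 and 5.95, and it stayed called in 17 of them (adjusted p from 0.000132 to 0.0648). P7_C2_SP6 lay between 3.85 and 5.87 and stayed called in 16 of 19. P4_A5_SP6 lay between -1.99 and -0.32 and lost its call in 11 of 19 alternatives (adjusted p up to 0.838), with the value nearest 0 on the authors' values. P6_D3_SP6 lay between -1.92 and -1.003 and lost its call in 9 of 20.

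Acetone against culture shares the acetone arrays with the comparison above and is set beside it, not added to it. Of the 165 probes tested, 12 were called, 5 higher and 7 lower (7.27%), beside 6.23% of all probes (2.27% higher and 3.96% lower). All 12 were among the 123 probes outside the near-identical 42. P7_C2_SP6 was at 2.00, 0.70 and 1.17 with acetone, against -4.19, -3.94 and -4.24 in culture, and rose by 5.42 ± 0.82 (adjusted p = 0.00508), 42.8-fold. P6_H1_SP6 rose by 5.40 ± 0.81 (adjusted p = 0.00508). Culture levels of both were tight, unlike those of the water control. P6_C9_SP6 was at -4.78, -5.06 and -4.76 with acetone, against -2.86, -2.99 and -3.53 in culture, and fell by 1.74 ± 0.22 (adjusted p = 0.00359). P3_C5_SP6 entered the test only through the water control, the only group of the fit with every array above background. It fell by at least 1.72-fold (adjusted p = 0.00508), with none of the acetone arrays and 2 of the culture arrays above background. That bound holds for this scaling only: with normexp background correction the difference was -0.18 (adjusted p = 0.854), 1.14-fold, with quantile normalization it was -0.38, and the call was lost in 4 of 19 alternatives. Over the alternatives P7_C2_SP6 lay between 4.76 and 6.22, and P6_C9_SP6 between -1.94 and -1.18. One scan day held 1 acetone and 2 culture arrays. Within it, the differences of the 4 probes with the largest rises lay between 5.45 and 6.25. With scan day as a fixed term no probe was called. Leaving out culture replicate 3 gave 20 calls, and leaving out acetone replicate 1, acetone replicate 3 or culture replicate 2 gave 7 each.

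Moving worms from culture to control soil for 2 days called no Ealb_Pest probe, of 165 tested (smallest adjusted p = 0.109), beside 0.113% of all probes. At an unadjusted p under 0.05, 18 were counted, 10.9% of the Ealb_Pest probes tested and 17.4% of all. The differences of the 165 ranged from -1.08 to 2.27, and 10 exceeded 2-fold (6.06%, beside 6.80% of all). The 2 higher and 2 lower probes with the lowest unadjusted p have values only. P2_D9_T7 was at 4.66, 4.42 and 4.27 in soil, against 3.63, 3.76 and 3.81 in culture, a difference of 0.71 ± 0.18 (adjusted p = 0.119). It was saturated on 6 of the 21 arrays, but on none of the soil and culture arrays compared here. P3_F5_T7 differed by 0.79 ± 0.20 (adjusted p = 0.119). P1_A4_SP6 was at -6.35, -6.20 and -6.28 in soil, against -4.81, -5.13 and -5.66 in culture, a difference of -1.08 ± 0.24 (adjusted p = 0.109). P1_C2_SP6 differed by -0.53 ± 0.21 (adjusted p = 0.216). In each of these 4 probes the groups do not overlap. Of the 165 probes, 35 did not overlap, 21.2%, beside 32.6% of all probes tested. Without culture replicate 3 there were 2 calls and without acetone replicate 2 there was 1.

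Time in control soil was compared within experiment 2. At 4 against 2 days, 0 of 162 Ealb_Pest probes were called (smallest adjusted p = 0.146), beside 0.466% of all 859 probes tested, and 15 had an unadjusted p under 0.05 (9.26%, beside 10.8% of all). P1_D7_SP6 was at -0.88, -0.87, -1.96 and -2.20 at 4 days, against -3.20, -2.32 and -3.18 at 2 days, a difference of 1.43 ± 0.41 (adjusted p = 0.193). P2_D10_SP6 differed by 1.77 ± 0.55 (adjusted p = 0.220), and its groups overlap. P5_H10_T7 was at -5.88, -5.76, -6.93 and -6.08 at 4 days, against -4.40, -5.19 and -4.22 at 2 days, a difference of -1.56 ± 0.39 (adjusted p = 0.146). P10_F12_SP6 differed by -1.92 ± 0.50 (adjusted p = 0.154). It was above background on only 1 of the 4 arrays at 4 days. Without the averaged pair of 2-day arrays, 3 probes were called.

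At 8 against 2 days, 0 of 162 were called (smallest adjusted p = 0.259), beside 0% of all probes, and 9 had an unadjusted p under 0.05 (5.56%, beside 4.89% of all). P9_F6_SP6 was at -1.18, -0.40, -1.38 and -1.0 at 8 days, against -4.14, -2.90 and -3.88 at 2 days, a difference of 2.65 ± 0.61 (adjusted p = 0.259). P6_F12_SP6 was at 0.00, 0.74, 0.22 and 1.13 at 8 days, against -2.71, -1.65 and -2.48 at 2 days, a difference of 2.81 ± 0.66 (adjusted p = 0.259). The groups do not overlap in either. P2_H1_T7 differed by -1.03 ± 0.36 and P6_G1_SP6 by -1.11 ± 0.40 (adjusted p = 0.624 each). With only the 8-day and 2-day samples in the fit, 4 probes were called, all higher.

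At 8 against 4 days, 4 of 162 probes were called, all higher (2.47%), beside 0.931% of all probes called higher and 1.05% called in either direction. They are the same 4 probes that had the largest rises with acetone; the fifth probe called higher there, P10_D7_SP6, was not called here. P9_F6_SP6 was at -1.18, -0.40, -1.38 and -1.0 at 8 days, against -5.64, -3.78, -2.81 and -4.86 at 4 days, and rose by 3.28 ± 0.56 (n = 4 each, adjusted p = 0.0299), 9.74-fold. P6_F12_SP6 was at 0.00, 0.74, 0.22 and 1.13 at 8 days, against -4.46, -2.41, -1.23 and -3.56 at 4 days, and rose by 3.44 ± 0.61 (adjusted p = 0.0312). P7_C2_SP6 rose by 3.28 ± 0.63 and P6_H1_SP6 by 3.26 ± 0.64 (adjusted p = 0.0385 each). In none of the 4 probes do the groups overlap, and the 4-day values spread more than the 8-day values. The 2 probes lower at 8 days with the smallest unadjusted p were P8_A10_SP6 (-0.80 ± 0.44, adjusted p = 0.722) and P3_H7_T7 (-2.97 ± 1.66, adjusted p = 0.740). P3_H7_T7 was above background on only 2 of the 4 arrays at 8 days.

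These 4 calls rest on the fit. They were lost, leaving 0, with quantile normalization, centring on the median, scan day as a random block, only the 2 groups in the fit, without the 2 arrays of the newer scanner (4-day replicates 1 and 2), and without the dimmest arrays. They also fell to 0 without 2-day replicate 1 or 3, 4-day replicate 1, 2 or 4, or 8-day replicate 2 or 4, and to 2 without 8-day replicate 1 or 3. The differences stayed positive throughout, between 2.61 and 4.00 for P9_F6_SP6 and P6_F12_SP6.

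Experiment 2 against experiment 1 at 2 days compares worms from untreated control soil with worms from water control soil in separate runs. Of 167 Ealb_Pest probes tested, 6 were called, 2 higher and 4 lower (3.59%), beside 7.42% of all 889 probes (2.81% higher and 4.61% lower). P2_H2_SP6 was at 2.63, 1.67 and 2.60 in experiment 2, against 0.66, 0.50 and 0.36 in experiment 1, and rose by 1.80 ± 0.33 (n = 3 each, adjusted p = 0.0277). P6_G1_SP6 was at 1.95, 1.65 and 1.64 in experiment 2, against 0.16, 0.43 and 0.38 in experiment 1, and rose by 1.42 ± 0.23 (adjusted p = 0.0182). P7_C8_SP6 was at -5.68, -3.83 and -5.42 in experiment 2, against -1.66, -1.59 and -1.28 in experiment 1, and fell by 3.47 ± 0.51 (adjusted p = 0.0131), 11.05-fold. P2_D10_SP6 was at -5.29, -3.85 and -5.68 in experiment 2, against -2.10, -1.59 and -1.69 in experiment 1, and fell by 3.15 ± 0.50 (adjusted p = 0.0162). Over 17 alternatives the difference of P7_C8_SP6 lay between -4.04 and -2.12 (4.36-fold to 16.5-fold) and that of P2_D10_SP6 between -3.69 and -1.85, both nearest 0 with normexp. P2_H2_SP6 lay between 1.17 and 2.11, and each of the 4 probes lost its call in 6 of 17. In all 4 probes the groups do not overlap, and the averaged pair lies closest to experiment 1 in 3 of them.

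The median difference was 0.62 over the Ealb_Pest probes and 0.33 over all probes. The 42 near-identical probes had a mean difference of 0.65, not called, and the other 125 had a median of 0.48. The count of calls rested on single samples. Without the averaged pair it was 113 of 169, 97 higher and 16 lower. Of those 113, 40 were among the 42 near-identical probes, which is 1 signal counted 40 times. The share over all probes in that fit is not given here, so the 113 are not read as particular to the library. Without experiment 2 replicate 3 the count was 1, and without experiment 2 replicate 1 or any 1 of the 3 experiment 1 samples it was 0. The arrays of the 2 groups were scanned on different days. A random block for that day gave 11 calls, 4 higher and 7 lower, but it cannot separate day from experiment, since no day held both groups.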

How the data were processed

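Per the file headers, 19 arrays were scanned on a G2505B and read by Agilent Feature Extraction 10.5.1.1, and 4-day replicates 1 and 2 on a G2505C and read by 10.7.3.1. Deposited spot intensity values are background-subtracted within each array, per the file headers, not normalized between arrays. A deposited table holds the authors' log2 values, with 25 missing among the Ealb_Pest probes; their normalization is not described in what was used here. The deposited marks for background, saturation and outlier spots are 0 or 1, per the file headers.

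The log2 intensity of the 15 spots of a probe was averaged without outlier spots, and the array's 75th percentile over worm spots subtracted. Well above background means that 0.5 or more of the usable spots carried that mark. Tests took the probes with this status on all arrays of 1 or more groups of the fit, and used two-sided moderated tests (lmFit and eBayes of limma 3.58.1, R 4.3.3, Benjamini-Hochberg over all worm probes), with 1 fit per experiment and 1 for the 2 groups of the last comparison. Where no array of a group was above background, the fold is a lower bound in this scaling. The fits were tested on simulated data.

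The members, settings and comparisons were chosen with earlier results of these data known, and the near-identical sets after seeing the data. Named probes are, per comparison, the 2 higher and 2 lower with the largest difference among calls without overlap, or, with under 5 calls, all calls and the 2 smallest unadjusted p in each direction. Probes called beside these (P6_H1_SP6, P9_F6_SP6 and P10_D7_SP6 with acetone) were chosen after their values were seen. For levels and spread, the extreme 3 of each kind were taken from probes above background on every array. The planned normexp alternative used the median spot signal in place of the mean. Alternatives were another normalization, background correction, filter, block and set of samples. The number of arrays limits the precision.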

Additional observations from a re-analysis of the deposited data

Results flagged for a closer look

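Among 52 sets of 4 samples checked, 1 value stood apart by Dixon's criterion, which by chance marks about 1 set in 20. On 8-day replicate 3 of experiment 2, 94 Ealb_Pest probes were well above background, against 165 to 171 on the other 8-day arrays. None of the 42 near-identical probes was above background there, against all 42 on the other 3. The level of the 42 probes on that array, -6.37, was not marked.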

How the results depend on the processing

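No value changed sign under any alternative. Of 648 values of 30 named differences under the alternatives, 523 kept their side of the threshold, 117 lost the call and 8 gained it. Counts below are Ealb_Pest probes called, and the cause of a change was not tested unless named. The matching shares over all probes are not given, so these counts do not set the library apart from other probes. For soil against culture, no filter gave 5 and scan day as a random block 4, against 0. For acetone against the water control, quantile normalization and median centring gave 6 each, normexp 7, the filter on every array 7, scan day as a random block 41 (6 higher, 35 lower, fitted correlation -0.21), the replicate block 4 and the authors' values 0, against 13. For acetone against culture, normexp gave 7, no filter 22, the filter on every array 7 and scan day as a fixed block 0, against 12. For 8 against 2 days, only the 2 groups gave 4, against 0. For 8 against 4 days, quantile normalization, median centring, scan day as a random block, the replicate block, only the 2 groups, no newer scanner and no dimmest arrays gave 0 each, against 4. For experiment 2 against experiment 1, quantile normalization gave 13 (5 higher, 8 lower), median centring 12 (6 and 6), scan day as a random block 11, the replicate block 0, the near-identical arrays as 2 samples 11 and no dimmest arrays 15, against 6.

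Leaving out 1 sample gave 0 to 2 calls for soil against culture, 0 to 20 for acetone against the water control, 7 to 20 for acetone against culture, 0 to 3 for 4 against 2 days, 0 for 8 against 2 days, 0 to 4 for 8 against 4 days and 0 to 113 for experiment 2 against experiment 1. Counting each near-identical set as 1 signal, chosen after seeing the data, gave 12, 10, 3 and 8 calls for acetone against the water control, acetone against culture, 8 against 4 days and experiment 2 against experiment 1, and 0 elsewhere. Same-numbered samples did not deviate together in every pair (correlations from -0.40 to 0.64), so the numbers were not used to pair samples. The median level of the Ealb_Pest probes below that of all probes was -0.86, -1.02 and -0.91 at 2, 4 and 8 days with normexp, and -1.24, -1.40 and -1.23 with acetone, in the water control and in culture. It was -2.04 with acetone under quantile normalization. The median replicate SD was 0.25 at 2 days of experiment 2 under quantile normalization and 0.20 in the water control for probes above background on every array. Leaving out the dimmest arrays and the fixed scan day block were also chosen after seeing the data. Array number and signal over background limit all counts: a fold is given as a bound where no array of a group was above background, while probes above it on some arrays, such as P4_A5_SP6, keep measured differences that include dim arrays.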
